A study of Mus musculus with 32 samples.

Results

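The collagen chains were taken as every array probe whose gene symbol in the platform annotation starts with Col, then digits, then an a and digits, such as Col3a1. The rule gave 59 of the 25697 probes on the array, and these belong to 37 of the 16593 genes that a probe names by a single symbol. It used the name alone and no measured value. Of the 37 genes, 12 have several probes, and each probe was kept as a separate measurement.

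Collagens are the main structural proteins of the extracellular matrix, and their chains wind into rope-like helices before they are secreted. The fibrillar collagens build tensile fibrils, collagen IV builds the sheet of the basement membrane, and collagen VI forms beaded filaments between that sheet and the fibrils. In skeletal muscle they form the endomysium around each fibre and pass force to the tendon. In the brain interior they are largely restricted to blood vessels and meninges, and some transmembrane collagens are made by neurons.

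Total RNA was measured on single-colour Illumina bead arrays from the hippocampus and the gastrocnemius, a calf muscle, of female C57BL/6J mice aged 23 months. AICAR, a compound that cells convert into an analogue of AMP and that activates the energy sensor AMPK, was injected into the peritoneum at 500 mg/kg daily for 3, 7 or 14 days. Control mice received the saline vehicle for 3 days, and no genetic change is named for any group. Tissue was taken after perfusion, 33 days after the last injection, so the arrays describe a state long after dosing had ended. Each tissue and treatment has 4 arrays, 32 in all. The labels number the replicates but do not say that they are separate mice, so the p-values measure the spread between these arrays, which may be technical. Saline was given for 3 days only, and at 7 and 14 days AICAR cannot be told apart from the larger number of injections.

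Across all probes the arrays fell into the same pair of sets in both tissues. A first principal component with 36% (hippocampus) and 44.9% (muscle) of the variance put saline and 3 days on one side and 7 and 14 days on the other. The authors' array numbers run in 4 blocks of 8, each block holds both tissues of a single treatment, and block and treatment cannot be told apart. The mean background signal of a group was 117.6 to 129 for saline and 3 days and 147.4 to 164 for 7 and 14 days. Between 11695 and 13225 probes were detected per array. Muscle fibre markers were tested for 8 of 8 genes in muscle, where their summed signal was 288360 to 331680 per array, and for 2 of 8 in hippocampus, where it was 3277 to 4644. Hippocampal neuron markers were tested for 6 of 8 genes in hippocampus and for 1 of 8 in muscle. Scaling each array to its median signal, in place of quantile normalization, moved the median change of all probes from -0.03 to 0.18 on the log2 scale in hippocampus at 7 days. In muscle it moved that median from -0.08 to -0.24 at 7 days and from -0.08 to -0.25 at 14 days. Among called probes, those that were higher than saline went with this scaling from 48.3% to 93.2% in hippocampus at 7 days, from 46.2% to 87.5% at 14 days, from 55% to 21.5% in muscle at 7 days and from 58.5% to 19.4% at 14 days.

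A probe was tested in a tissue when its detection p-value was below 0.05 on at least 4 of the 16 arrays. This left 19 collagen probes of 18 genes in hippocampus and 18 probes of 16 genes in muscle, and 12 probes were tested in both. The other members gave no usable level: 20 of the 59 probes were detected on no array of either tissue, and 12 genes had no probe tested anywhere. By class, 7 of 17 fibrillar probes were tested in muscle and 5 in hippocampus, 3 and 2 of 9 basement membrane probes, 3 and 3 of 6 beaded filament probes, 2 and 3 of 8 fibril-associated probes and 2 and 2 of 4 multiplexin probes. Of the 10 transmembrane probes 3 were tested in hippocampus and 0 in muscle, and the sole tested probe of the anchoring fibril chain Col7a1 was tested in muscle. Both short-chain probes (Col8a2, Col10a1) and the Col5a2 probe were tested in neither tissue. Values are normalized log2 signals, and levels of different probes are not compared, since each probe has its own brightness.

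The chains on which the results turn are Col1a2 and Col3a1, which rose in muscle, and Col6a1, which fell in hippocampus. Their RefSeq promoter windows (GRCm38.p6) run from upstream of the gene's start into its first bases. They are printed 5′ to 3′ on the strand of the gene. Capitals mark CCAAT and its reverse complement ATTGG as well as TATAAA and GGGCGG with TTTATA and CCGCCC as theirs.
Col1a2, chr6:4505368-4505667 (+): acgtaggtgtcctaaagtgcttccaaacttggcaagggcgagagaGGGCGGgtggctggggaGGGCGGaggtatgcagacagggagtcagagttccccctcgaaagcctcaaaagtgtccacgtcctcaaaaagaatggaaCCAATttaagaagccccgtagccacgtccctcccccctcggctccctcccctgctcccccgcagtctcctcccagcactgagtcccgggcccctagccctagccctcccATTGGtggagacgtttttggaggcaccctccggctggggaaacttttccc
Col3a1, chr1:45311288-45311587 (+): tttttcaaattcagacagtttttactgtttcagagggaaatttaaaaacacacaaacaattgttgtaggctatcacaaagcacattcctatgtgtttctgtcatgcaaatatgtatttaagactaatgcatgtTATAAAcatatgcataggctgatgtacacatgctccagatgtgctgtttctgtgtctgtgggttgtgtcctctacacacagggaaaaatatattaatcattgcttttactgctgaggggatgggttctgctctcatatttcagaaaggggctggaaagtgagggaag
Col6a1, chr10:76725995-76726294 (-): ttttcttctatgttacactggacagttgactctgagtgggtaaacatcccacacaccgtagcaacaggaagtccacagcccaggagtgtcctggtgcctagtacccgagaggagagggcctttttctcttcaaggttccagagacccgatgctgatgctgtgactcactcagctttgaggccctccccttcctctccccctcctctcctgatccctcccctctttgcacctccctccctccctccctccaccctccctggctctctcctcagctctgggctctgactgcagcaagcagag

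The Col1a2 window holds CCAAT 109 bases before the start, ATTGG at the start itself and GGGCGG 205 and 188 bases before it, and its GC content is 61%. The Col3a1 window holds TATAAA 117 bases before the start and neither of the other motifs, and its GC content is 37.7%. None of these letters stand in the Col6a1 window, whose GC content is 57.3%. Of the 37 genes, 30 had an entry in the table, with 33 windows. CCAAT on either strand was found in 12 of the 33 windows (36.4%) and in 37.4% of all 32851 windows of the table. TATAAA was found in 5 (15.2%, against 13.6% of all), and GGGCGG in 20 (60.6%, against 35.7% of all). The basement membrane genes Col4a1 and Col4a2 lie head to head on chromosome 8, and their windows share 78 bases. These matches describe the windows and say nothing of what binds there.

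In muscle, 2 fibrillar chains were called higher a month after the longer courses. Col1a2, a chain of collagen I, and Col3a1, the chain of collagen III in the fine fibrils that accompany collagen I, rose more than 2-fold after 7 and after 14 days. Col1a1, the partner of Col1a2 in collagen I, did not pass the test at either time. Of the 18 tested members, 2 rose and 0 fell at 7 days, where 19.7% of all tested probes were called (10.8% higher, 8.86% lower). At 14 days 2 rose and 0 fell, where 18.8% were called (11% higher, 7.81% lower). At each time these 2 were 11.1% of the members, close to the share of all probes called higher. In bulk tissue a change in the number of cells of a type and a change in RNA per cell cannot be told apart.

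Col1a2 read 6.58, 6.68, 6.28 and 6.31 on the 4 saline arrays of muscle and 7.26, 6.99, 6.38 and 6.83 after 3 days. It read 7.82, 7.37, 8.64 and 7.76 after 7 days and 7.86, 7.38, 7.01 and 7.67 after 14 days. Every 7-day and 14-day array was above every saline array, while the 3-day arrays overlapped saline. The change from saline was 1.44 ± 0.24 on the log2 scale at 7 days (SE, n = 4 per group, limma adjusted p = 0.000374), which is 2.71-fold. At 14 days it was 1.02 ± 0.24 (adjusted p = 0.00643), or 2.02-fold. The 7-day replicate 3 was the highest, and without it the 7-day change was 1.19 (adjusted p = 0.000926).

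The brighter Col3a1 probe (ILMN_1258629) read 6.25, 6.07, 5.79 and 5.72 after saline and 6.73, 6.14, 6.06 and 5.74 after 3 days. It read 7.43, 6.84, 7.91 and 6.89 after 7 days and 7.68, 7.04, 6.92 and 7.54 after 14 days. Again the 7-day and 14-day arrays were all above saline, and also above all 3-day arrays. The change was 1.31 ± 0.25 at 7 days (limma adjusted p = 0.00104, 2.48-fold) and 1.34 ± 0.25 at 14 days (adjusted p = 0.000779, 2.53-fold). The second Col3a1 probe (ILMN_2683958) was detected on 2 of 16 muscle arrays and was not tested, so the Col3a1 result rests on a single probe.

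Col1a1 read 9.09, 9.22, 8.76 and 8.90 after saline, 9.94, 9.71, 9.03 and 9.07 after 3 days, 8.49, 8.82, 10.11 and 9.06 after 7 days and 8.96, 8.29, 8.42 and 8.53 after 14 days. The treated groups all overlapped saline, and the 7-day arrays were spread the widest, from 8.49 to 10.11. The change from saline was 0.12 ± 0.28 at 7 days and -0.44 ± 0.28 at 14 days, and neither passed. Col5a1, a chain of collagen V, which starts collagen I fibrils, read 8.90, 8.72, 8.66 and 8.78 after saline and 8.66, 8.26, 8.24 and 8.41 after 14 days. The 14-day arrays did not overlap saline, but only just: the lowest saline and the highest 14-day array both read 8.66. The change of -0.37 ± 0.14 missed the threshold (adjusted p = 0.0791). The remaining fibrillar probes in muscle were 2 of Col24a1 and 1 of Col2a1, the cartilage collagen II chain. The Col24a1 probes changed by 0.49 ± 0.24 and 0.25 ± 0.21 at 7 days and by 0.41 and -0.01 at 14 days, and Col2a1 by 0.14 and 0.10, with none past the threshold.

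**Figure D1:**
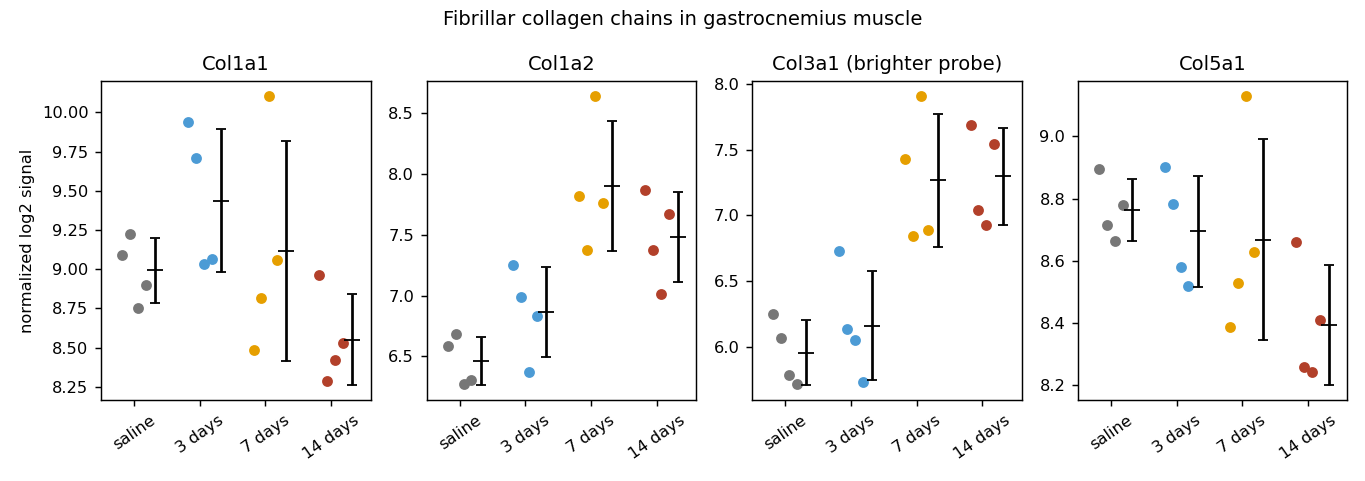
Normalized log2 signal (vertical axis, own scale in each panel) of 4 fibrillar chains in gastrocnemius muscle by treatment. Points are arrays (4 per group, replicates 1 to 4 from left to right) and the bars give the mean ± SD. For Col1a2 and Col3a1 all 7-day and 14-day points lie above all saline points, while Col1a1 groups overlap.

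None of the 3 basement membrane probes tested in muscle was called against saline. Col4a1, which with Col4a2 forms the common collagen IV network, changed by 0.13 ± 0.13, -0.21 ± 0.13 and -0.27 ± 0.13 at 3, 7 and 14 days. Col4a2 changed by 0.08, -0.05 and -0.16 (SE 0.15 each). Col4a4, a chain best known from kidney, was detected on 5 of 16 muscle arrays and stood at -0.25 and -0.27 at 7 and 14 days. With median scaling Col4a1 was called at 7 days (-0.44, adjusted p = 0.0228) and 14 days (-0.50, adjusted p = 0.0111) while the median of all probes stood at -0.24 and -0.25 on that scale. With it 3 members were lower at 7 days (Col4a1, Col15a1 and the second Col6a1 probe) and 6 at 14 days (these and Col1a1, Col4a2 and Col5a1), beside the same 2 that rose.

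Col6a1, a collagen VI chain whose human mutations cause muscular dystrophy, has 2 tested probes in muscle that differed in sign at 7 days. The first (ILMN_1259388) changed by 0.32 ± 0.16 at 7 days and by 0.00 at 14 days. The second (ILMN_2768087) changed by -0.16 ± 0.14 and by -0.42 ± 0.14, the latter with an adjusted p of 0.0514. Col6a2, its partner, changed by -0.10 ± 0.20 and -0.19 ± 0.20. The multiplexins, basement membrane collagens whose ends release anti-angiogenic fragments, stood at -0.16 and -0.24 for Col15a1 (SE 0.12) and at 0.02 and -0.11 for Col18a1. Among fibril-associated chains Col14a1 stood at -0.35 ± 0.15 and -0.30 ± 0.15 and Col16a1 at 0.34 ± 0.18 and -0.06 ± 0.18. Col7a1, the anchoring fibril chain known from skin, stood at 0.19 ± 0.36 and -0.42 ± 0.36. Taken over the 18 tested probes, 10 changes were positive at 7 days (median 0.07, against -0.08 for all probes) and 4 at 14 days (median -0.17, against -0.08).

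At 7 days 4 members did not overlap saline (Col1a2, Col3a1, and 1 probe each of Col24a1 and Col6a1), where 23% of all tested probes did not overlap. At 14 days 3 did not overlap (Col1a2, Col3a1 and, only just, Col5a1), against 23%.

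In hippocampus every collagen called against saline was lower. After 14 days Col6a1 fell at both tested probes, as did Col5a1 and Col23a1, a transmembrane collagen whose ectodomain is shed, and no collagen rose. In all 0 of 19 tested members rose and 4 fell at 14 days, where 29.5% of all tested probes were called (13.7% higher, 15.9% lower). After 7 days 0 rose and 1 fell (Col6a1), where 27.1% were called (13.1% higher, 14% lower). The 4 probes lower at 14 days, of 3 genes, were 21.1% of the members, near the 15.9% of all probes. The 1 probe lower at 7 days was 5.26% of the members, below the 14% of all probes. Members without overlap with saline numbered 2 at 7 days (Col6a1 and Col23a1), against 30.3% of all probes, and 1 at 14 days (Col6a1), against 31.8%.

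The first Col6a1 probe read 8.53, 8.88, 8.58 and 8.51 after saline, 8.57, 8.23, 8.53 and 8.39 after 3 days, 8.15, 8.39, 8.22 and 8.05 after 7 days and 8.18, 7.33, 7.98 and 7.92 after 14 days. The 7-day and 14-day arrays were all below saline. The change was -0.42 ± 0.15 at 7 days (limma adjusted p = 0.0479) and -0.77 ± 0.15 at 14 days (adjusted p = 0.0016), a 1.71-fold lower level. Leaving out each of the 8 arrays of the comparison in turn gave -0.49 to -0.34 at 7 days, and the call was lost in all of these but that without 7-day replicate 2, with adjusted p up to 0.138. The second probe read 8.67, 8.72, 8.67 and 8.23 after saline and 8.46, 7.09, 7.81 and 7.91 after 14 days, with 1 array of each group inside the range of the other. Its change was -0.31 ± 0.21 at 7 days, which did not pass, and -0.76 ± 0.21 at 14 days (adjusted p = 0.0149). With median scaling the 14-day change of this second probe was -0.585 and was not called (limma adjusted p = 0.0768).

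Col23a1 read 6.42, 6.58, 6.65 and 6.55 after saline and 6.47, 5.12, 5.77 and 5.70 after 14 days. All but the first 14-day array were below saline, and 3 of the 4 were above background. The change was -0.78 ± 0.19 (limma adjusted p = 0.00606), or 1.72-fold lower. Col5a1 read 6.75, 7.57, 7.12 and 6.90 after saline and 7.14, 5.95, 6.53 and 6.40 after 14 days, and its change was -0.58 ± 0.20 (adjusted p = 0.0428). The 14-day replicate 2 was the lowest array for each of these 4 probes and the 14-day replicate 1 the highest. Without replicate 2 the changes were -0.60 (adjusted p = 0.0029) and -0.52 (0.0393) for Col6a1, -0.57 (0.0139) for Col23a1 and -0.39 (0.145) for Col5a1, so Col5a1 was no longer called. The Col5a1 call was lost in 5 of 8 such omissions, and also with median scaling, in the authors' series values, without the detection filter and with the replicate block.

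**Figure D2:**
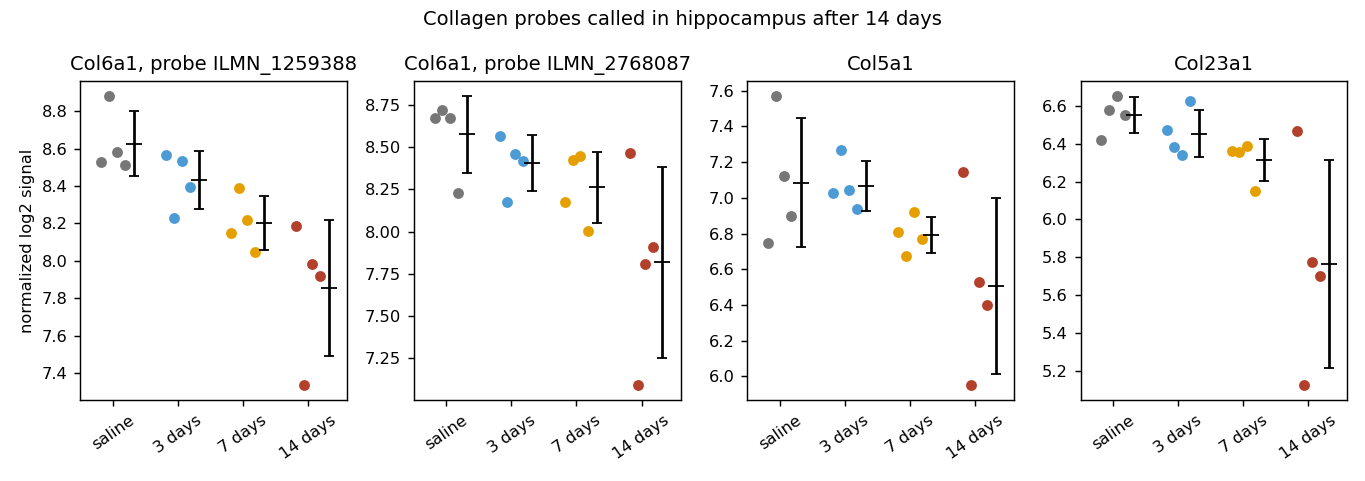
Normalized log2 signal (vertical axis, own scale in each panel) in hippocampus of the 4 collagen probes called after 14 days, by treatment. Points are arrays (replicates 1 to 4 from left to right) and bars the mean ± SD, n = 4 per group. The 14-day replicate 2 is the lowest point in every panel, and the 14-day replicate 1 lies within the range of the saline points for 3 of the 4 probes.

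The other panel chains of hippocampus were not called. Col4a1 changed by -0.12 ± 0.08 at 7 days and -0.17 ± 0.08 at 14 days (adjusted p = 0.110), and Col4a2 by 0.06 and -0.06. Col6a2 changed by -0.04 and -0.21, Col15a1 by 0.21 and 0.13 and Col18a1 by 0.27 and 0.28. Col1a2 changed by -0.12 ± 0.19 and -0.19 ± 0.19. Col1a1 was detected on no saline array and on 3 of 4 arrays at 7 and at 14 days, with a change of 0.37 ± 0.20 and 0.38 ± 0.20 that did not pass (adjusted p = 0.190 and 0.173). Col3a1 was detected on none of the 16 hippocampal arrays. Col9a1, a fibril-associated chain known from cartilage, stood at -0.44 ± 0.19 at 7 days (adjusted p = 0.0960), where it was detected on no array. With median scaling and in the authors' series values Col9a1, and not Col6a1, was the 1 member called at 7 days (adjusted p = 0.022 and 0.0398). Col25a1, a neuronal transmembrane collagen found in amyloid plaques, stood at 0.28 ± 0.16 at 7 days and 0.02 at 14 days. Over the 19 tested probes 9 changes were positive at 7 days (median -0.04, against -0.03 for all probes) and 7 at 14 days (median -0.12, against -0.04).

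Beside these hippocampal values, markers of tissue that borders the hippocampus varied widely between arrays. The summed signal of 6 choroid plexus markers was 2814 to 34029 in saline and 33025 to 42815 after 14 days. At 3 and 7 days it was 5506 to 42575 and 4309 to 40784. Of the 6, 1 was called higher at 7 days and 1, Calml4, at 14 days (1.81 ± 0.43, limma adjusted p = 0.00543). The summed signal of 8 meningeal markers was 5389 to 13576 in saline and 12297 to 19729 after 14 days. At 3 and 7 days it was 3713 to 15593 and 10845 to 18188. Of the 8, 1 was called higher at 7 days and 1, Ptgds, at 14 days (1.55 ± 0.44, adjusted p = 0.0154). For 5 pericyte and smooth muscle markers the sum was 2447 to 7608 in saline and 1978 to 6054 after 14 days. Of the 5, 1, Cspg4, was called higher after 14 days (0.41). The summed signal of 5 macrophage and microglia markers was 953 to 1094 in saline, 1078 to 1395 at 7 days and 1156 to 1396 at 14 days, and Aif1 (0.40 ± 0.11 and 0.50 ± 0.11) and C1qa (0.54 ± 0.17 and 0.77 ± 0.17) rose at both times. Their part in the collagen values was not tested. In muscle the summed signal of 8 fibroblast markers was 18399 to 21032 in saline, 19483 to 21197 at 7 days and 20152 to 22828 at 14 days. Of these, Pdgfra (-0.27 ± 0.09) and Lum (-0.52 ± 0.15) fell at 7 days and Dpt rose at 14 days (0.52 ± 0.15). The summed signal of 4 tendon markers was 1215 to 1318 in saline, 1028 to 1665 at 7 days and 920 to 1136 at 14 days, and none of the 4 was called. Of 5 macrophage markers, Adgre1 rose by 0.90 ± 0.21 and 1.12 ± 0.21, while Mrc1 (-0.61 ± 0.16) and C1qa (-0.93 ± 0.15) fell at 7 days. Their summed signal was 661 to 759 in saline, 405 to 680 at 7 days and 596 to 691 at 14 days. Among 8 muscle fibre markers the fast myosins Myh1 (0.87 ± 0.20 and 0.93 ± 0.20) and Myh4 (0.34 ± 0.09 and 0.42 ± 0.09) rose, with a sum of 288360 to 313970 in saline, 307385 to 331680 at 7 days and 312268 to 322512 at 14 days. Of 3 adipocyte markers Cidec rose at 7 days (0.89 ± 0.27), and of 7 endothelial markers Cdh5 fell at both times (-0.63 ± 0.12 each). The sums were 737 to 2078, 1609 to 1933 and 1090 to 2295 for adipocyte and 6135 to 7305, 6124 to 6927 and 5413 to 6690 for endothelial markers in saline, at 7 and at 14 days. The part of all these in the muscle result was not tested.

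**Figure D3:**
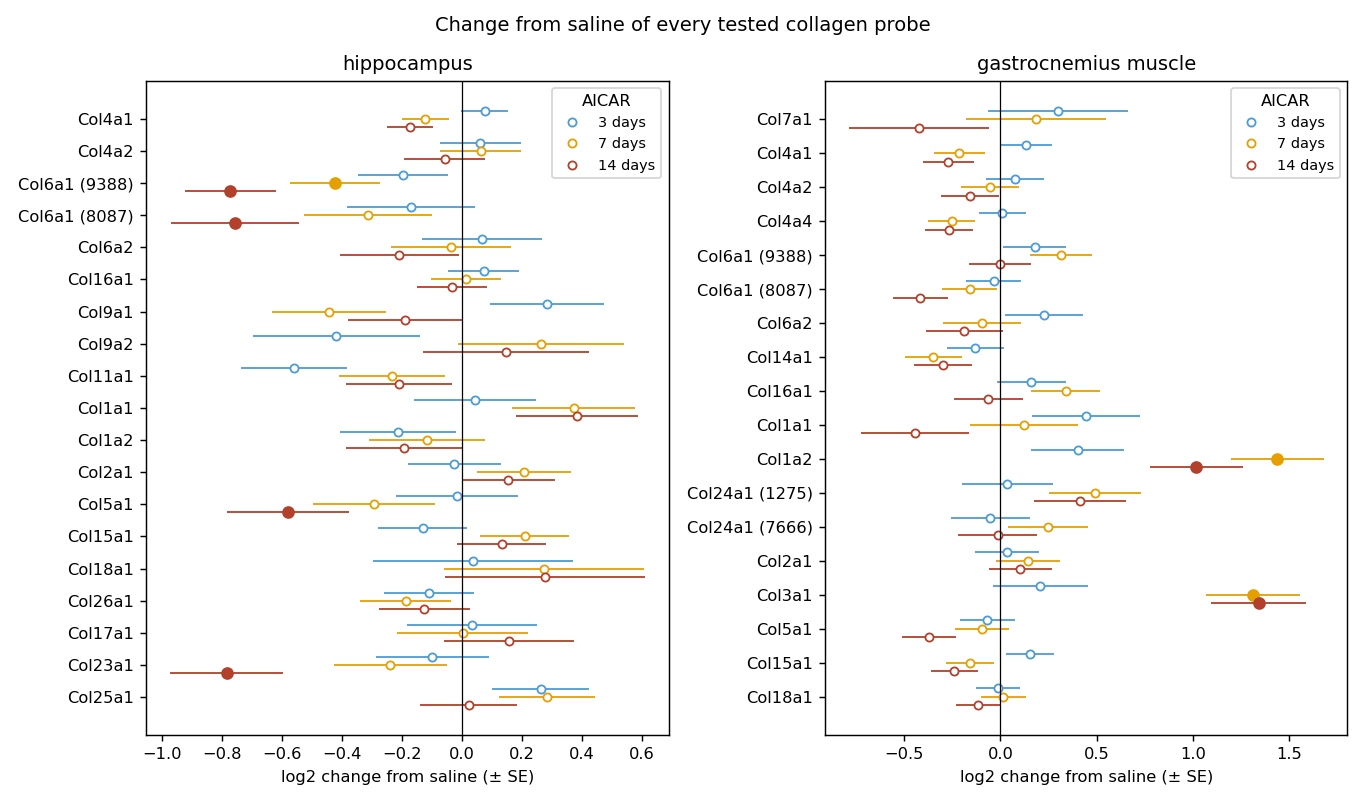
Change from saline on the log2 scale (horizontal axis, ± SE) of every tested collagen probe in hippocampus (19 probes) and muscle (18 probes) after 3, 7 and 14 days of AICAR; digits in brackets are the end of the probe number where a gene has 2 tested probes. Filled points passed limma's adjusted p of 0.05: 1 and 4 lower probes in hippocampus at 7 and 14 days, and Col1a2 and Col3a1, both higher, in muscle at both times.

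After 3 days no collagen was called in either tissue. By limma 0 of 19 members in hippocampus and 0 of 18 in muscle passed, and 0% of all probes passed in both. At an unadjusted p below 0.05 there were 1 and 0 members. In hippocampus that member was Col11a1, a fibrillar chain of cartilage (-0.56 ± 0.18, adjusted p = 0.637), which was the 1 member without overlap, where 2.07% of all probes did not overlap. Next came Col25a1 (0.26), Col9a2 (-0.42), Col9a1 (0.28) and Col6a1 (-0.20). In muscle the smallest p-values belonged to Col1a2 (0.40 ± 0.24, adjusted p = 0.559), Col1a1 (0.44 ± 0.28), Col15a1 (0.15), Col6a2 (0.23) and Col6a1 (0.18), and no member was free of overlap, against 7.81% of all probes.

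The courses were also compared with each other, where both groups received AICAR. Each course has its own block of array numbers, so course and block cannot be told apart here either. In muscle 1 of 18 members was higher after 14 than after 3 days and 3 were lower, where 19.2% of all probes were called (11% higher, 8.16% lower). Col3a1 was higher by 1.13 ± 0.25 (limma adjusted p = 0.00348). Col1a1 was lower (-0.89 ± 0.28, adjusted p = 0.0354), with all 14-day arrays below all 3-day arrays. Col4a1 (-0.40 ± 0.13, adjusted p = 0.0421) and Col15a1 (-0.39 ± 0.12, adjusted p = 0.0367) were lower as well. The Col1a1 and Col4a1 calls were each lost in 5 of 8 omissions of a single array and the Col15a1 call in 6. In hippocampus 3 of 19 members were lower and 0 higher, where 27% of all probes were called (13% higher, 14% lower). These were Col6a1 at the first probe (-0.58 ± 0.15, adjusted p = 0.0109), Col23a1 (-0.69 ± 0.19, adjusted p = 0.0142) and Col4a1 (-0.25 ± 0.08, adjusted p = 0.0279). The Col4a1 call was lost in 4 of 8 omissions of a single array, and its value was 0.04 with median scaling, where all probes shifted to a median of 0.15. The Col6a1 and Col23a1 calls were lost with median scaling too. Members without overlap numbered 4 in muscle, against 23% of all probes, and 3 in hippocampus, against 26.1%. Between 14 and 7 days limma called 0 members and 0% of all probes in both tissues, with 2 members in hippocampus and 1 in muscle at an unadjusted p below 0.05. No member was free of overlap there, against 3.04% of all probes in hippocampus and 2.33% in muscle.

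Muscle and hippocampus differ in most transcripts, and so do the collagens. In saline arrays normalized together, 15 of 27 tested members were higher in muscle and 5 lower, where 80.1% of all probes were called (42.5% higher, 37.6% lower). Higher were all 3 basement membrane probes, all 3 collagen VI probes and 6 of 10 fibrillar probes. Of these, Col4a4 was close to background, detected on 2 of 4 saline muscle arrays and 0 of 4 hippocampal ones, with overlapping groups. Its difference was 0.44 in saline and -0.09 after 14 days of AICAR, where it was not called. The median difference of the members was 0.63, against 0.08 for all probes.

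Col1a1 read 9.08, 9.21, 8.78 and 8.91 in muscle and was not well above background on any saline hippocampal array, which makes it at least 11.7-fold higher in muscle (limma adjusted p = 1.66e-15). Col15a1, found at the basement membranes of capillaries and muscle fibres, read 8.76, 9.21, 8.86 and 8.95 in muscle and 5.30, 5.17, 5.46 and 5.14 in hippocampus, where 1 of 4 arrays detected it. The fitted difference was 3.68 ± 0.13 (adjusted p = 6.16e-22), with the hippocampal value close to background. Col4a1 was higher in muscle by 2.58 ± 0.11 and Col4a2 by 2.25 ± 0.15, and Col7a1 was at least 4.76-fold higher. None of these muscle arrays overlapped hippocampus.

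Chains lower in muscle were few. Col26a1 read 6.27, 6.98, 6.87 and 6.43 in hippocampus and was not well above background on any muscle array, at least 2.26-fold lower (adjusted p = 8.01e-14). Col23a1 was at least 1.89-fold lower and Col9a2 at least 1.88-fold lower, also without detection in muscle saline. Col16a1, a fibril-associated chain, was detected on all arrays of both tissues and was lower in muscle (-0.90 ± 0.15, adjusted p = 4.4e-06). Col11a1 was at least 1.01-fold lower, with overlapping groups, and its call was lost without hippocampal saline replicate 1. Col18a1 was detected on every array of both tissues and did not differ beyond its error (0.35 ± 0.27).

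After 14 days of AICAR 13 of 27 members were higher in muscle and 5 lower, where 81.1% of all probes were called (42.4% higher, 38.6% lower). Members without overlap numbered 18 in saline (74.2% of all probes) and 19 after 14 days (76%). Col1a2 stood 0.86 ± 0.21 higher in muscle in saline and 1.98 ± 0.21 higher after 14 days. Col3a1, never detected in hippocampus, was at least 1.62-fold higher in saline and at least 4.25-fold higher after 14 days.

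**Figure D4:**
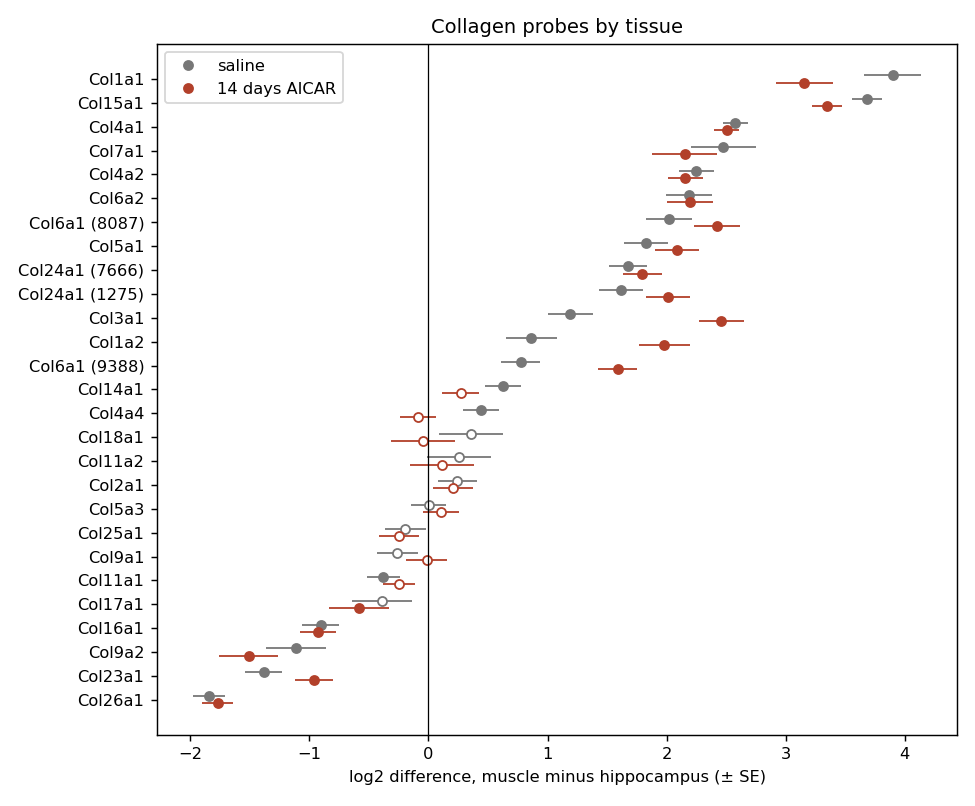
Difference of gastrocnemius muscle minus hippocampus on the log2 scale (horizontal axis, ± SE) for the 27 jointly tested collagen probes, in saline and after 14 days of AICAR (4 arrays per tissue and treatment). Filled points passed limma's adjusted p of 0.05; where a tissue did not detect the probe the fitted value depends on the background. Most chains lie to the right of 0, and Col26a1, Col23a1, Col9a2 and Col16a1 to the left at both treatments.

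Whether the change from saline differed between the tissues was tested directly, as the change in muscle minus the change in hippocampus. It was higher in muscle for 3 of 27 members at 7 days, where 15.5% of all probes were called, and for 3 at 14 days, where 15.4% were called, and lower for 0 (all probes 7.4% higher and 8.13% lower at 7 days, 7.56% and 7.85% at 14 days). Both times these were Col1a2, Col3a1 and the first Col6a1 probe. Col1a2 differed by 1.44 ± 0.30 at 7 days (limma adjusted p = 0.00107) and 1.12 ± 0.30 at 14 days (adjusted p = 0.0106). Col3a1 differed by 1.23 ± 0.27 and 1.27 ± 0.27 (adjusted p = 0.00165 and 0.00119), with the hippocampal side at background throughout. Col6a1 differed by 0.75 ± 0.23 and 0.81 ± 0.23 (adjusted p = 0.0243 and 0.0152) at the first probe but by 0.18 and 0.40 at the second, which did not pass. With median scaling the first Col6a1 probe differed by 0.20 and 0.36 and was not called at either time, nor was it in the authors' series values, and the 7-day call was lost in 3 of 16 omissions of a single array. At 3 days limma called 0 members and 0% of all probes, with 1 member at an unadjusted p below 0.05.

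In some groups, many collagens were high or low on the same array. Of the 18 probes tested in muscle, 14 had their highest value of the 14-day group on replicate 1 and 12 their lowest on replicate 2, where 27.5% and 26.6% of all probes did. The 3-day replicate 1 was the highest for 14 of 18 (22.8% of all probes) and the 7-day replicate 3 for 12 (25%). In hippocampus the 14-day replicate 2 was the lowest for 11 of 19 (24.7%) and the highest for 0. Other groups were more even. The array that was highest most often held 7 of 18 in muscle saline (27.9% of all probes) and 6 of 19 in hippocampus at 7 days (24.5%). The members share these arrays, so the counts describe single arrays. Without 7-day replicate 3 Col3a1 in muscle still rose by 1.10 (adjusted p = 0.00404). Without 14-day replicate 1 it rose by 1.21 (adjusted p = 0.00392) and Col1a2 by 0.89 (adjusted p = 0.0243), and 2 further members were then called lower.

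**Figure D5:**
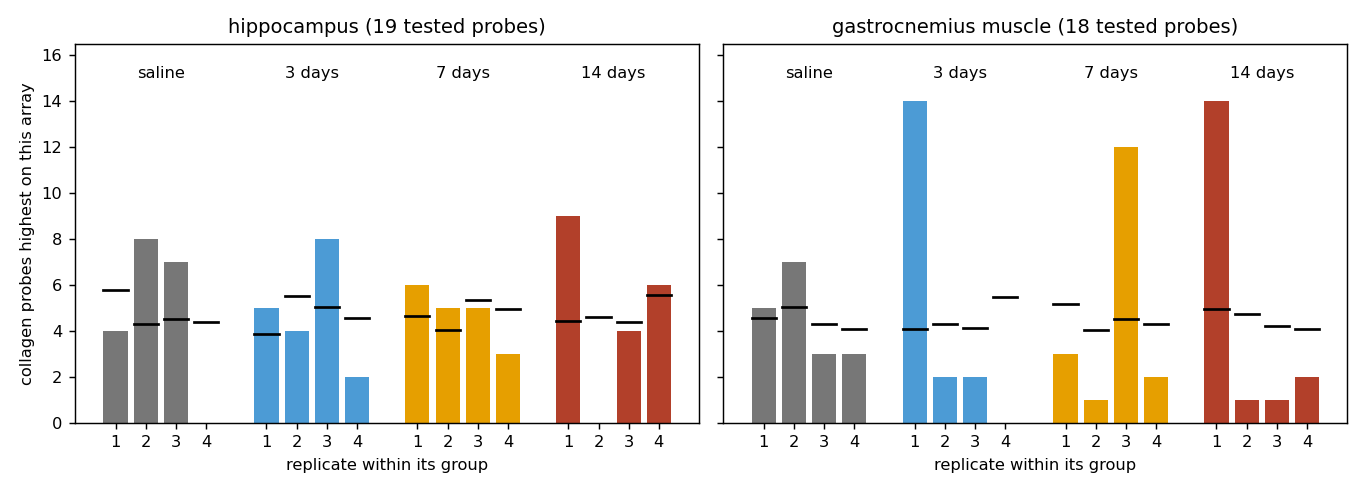
Number of tested collagen probes (vertical axis) with their highest value of the group on each replicate array, by tissue and treatment. Black lines mark the number expected from the share of all tested probes that are highest on that array. Muscle replicate 1 at 3 and 14 days and replicate 3 at 7 days hold 14, 14 and 12 of 18 probes.

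Genes that make, bind or degrade collagen were listed by role. Their counts stand beside shares of all tested probes called against saline of 19.7% at 7 days and 18.8% at 14 days in muscle, and of 27.1% and 29.5% in hippocampus. In muscle, of 6 tested genes that trim and cross-link procollagen, 1 rose and 2 fell at both times. Pcolce2, an enhancer of the proteinase that trims the procollagen end, rose by 0.77 ± 0.14 at 7 days (limma adjusted p = 0.000986) and 0.80 ± 0.14 at 14 days. Its relative Pcolce fell by 0.49 and 0.59 (-0.49 ± 0.14 and -0.59 ± 0.14), and Lox, which cross-links collagen, by 0.57 and 0.58. Of 17 folding and modifying enzymes 0 rose and 1 fell at 7 days, Colgalt2, which adds galactose to collagen (-0.39 ± 0.12). At 14 days 0 rose and 2 fell, Colgalt2 (-0.47 ± 0.12) and the procollagen export factor Mia3 (-0.61 ± 0.16).

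Among 11 tested muscle genes of collagen breakdown 2 rose and 1 fell at each time. The fibroblast protease Fap rose by 0.49 ± 0.16 and 0.58 ± 0.16 and the inhibitor Timp3 by 0.25 and 0.27. The membrane collagenase Mmp14 fell at 7 days (-0.37 ± 0.11) and the inhibitor Timp2 at 14 days (-0.34 ± 0.09). Of 9 basement membrane partners the laminin chain Lamb1 rose by 0.51 ± 0.14 and 0.75 ± 0.14 and the linker Nid2 fell by 0.37 and 0.47 at 7 and 14 days. Of 13 fibril-binding proteins Lum fell at 7 days, as given above, and Omd rose at 14 days (0.44 ± 0.13). Of 11 genes of TGF-beta signalling, a main inducer of collagen genes, the ligand Tgfb2 rose by 0.54 ± 0.12 and 0.53 ± 0.12, while the receptor Tgfbr1 (-0.39 and -0.28) and the target Ccn2 (-0.38 and -0.36) fell. None of 6 collagen receptors was called against saline.

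In hippocampus the ligand Tgfb2 also rose, by 0.81 ± 0.10 at 7 days (limma adjusted p = 8.40e-05) and 0.89 ± 0.10 at 14 days. Of the 11 signalling genes 3 rose and 2 fell at both times, with Smad3, a signal transducer, higher by 0.70 and 0.78, its relative Smad2 at -0.40 and -0.52, and the latency protein Ltbp1 at -0.77 and -0.78, the last detected on 4 of 16 arrays. Of 16 folding enzymes 2 rose and 2 fell at 7 days and 3 rose and 2 fell at 14 days, led by the chaperone Fkbp14 (0.69 ± 0.12 and 0.84 ± 0.12). The lysyl hydroxylase Plod3 was lower (-0.21 and -0.24) and Colgalt2 too (-0.38 and -0.41). Of 6 processing genes 1 fell at both times, the procollagen proteinase Bmp1 (-0.32 ± 0.08 and -0.30 ± 0.08).

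Of 10 hippocampal genes of breakdown 2 rose and 1 fell at 7 days and 1 rose and 2 fell at 14 days. The protease Ctsk rose by 0.86 ± 0.20 and 0.87 ± 0.20 and Mrc2, the receptor that takes up collagen fragments, fell by 0.79 and 0.75. Of 9 basement membrane partners Lama2, the laminin chain of muscle and brain vessels, rose by 0.63 and 0.68 and the peroxidase Pxdn, which links collagen IV, fell by 0.47 and 0.45. Of 12 fibril-binding proteins Tnxb fell at both times (-0.60 and -0.52) and Fbln1 rose at 14 days (0.75 ± 0.25). Of 4 receptors Cspg4, which binds collagen VI, rose at 14 days (0.41 ± 0.14). No gene of these lists was called after 3 days in either tissue.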

How the data were processed

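The members and gene lists were chosen with earlier results of these data known. The deposited intensities, one per probe and array, were neither background-corrected nor normalized, and BeadStudio 1.6.0 was used per the submitters' processing notes. The deposited detection p-value of each probe was used as given. The authors' series values are a score, the z score of the log2 intensity within each array, and served as an alternative. With limma 3.58.1 in R 4.3.3, intensities were corrected by normexp using detection p-values (offset 16, which shrinks differences of dim probes) and quantile-normalized on the log2 scale, within each tissue (16 arrays) or jointly (32 arrays) for tissue comparisons. Probes with a detection p below 0.05 on 4 or more arrays were fitted (13659 in hippocampus, 12977 in muscle, 15532 jointly) with 1 mean per group, moderated tests were two-sided, and Benjamini-Hochberg adjustment ran over all tested probes. A probe was called below an adjusted p of 0.05. Bounds written "at least" set the bright group's mean against the lowest signal among detected probes, or the dim probe's own signal where higher. Of 25697 probes, 23978 have 1 symbol. Named chains were a fixed panel, every chain called against saline, the 5 smallest p-values where fewer than 5 were called, the 5 largest tissue differences each way, and up to 4 genes per list. On simulated data 69% of 1.5-fold and 93% of 2-fold changes were recovered in hippocampus at 14 days, and 60% and 92% in muscle, with 5 and 10 false calls. The simulation drew independent noise for each probe and array on normalized values and changed few probes. It held no deviations shared by an array or block, so its rates need not hold for these arrays. The number of arrays limits precision. Alternatives were the background correction, scaling, detection filter, variance model, array weights, a replicate block and each array left out. Deviations of arrays with the same replicate number had a median correlation of -0.0164 in hippocampus and -0.022 in muscle. Within a tissue such arrays belong to different treatments, so this cannot show whether arrays share a mouse.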

Additional observations from a re-analysis of the deposited data

Results flagged for a closer look

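Of 148 sets of 4 arrays examined, 10 held an array far from its group, where chance gives about 1 in 20. The count is not far from that rate, and the sets are not independent, since members share arrays. In hippocampus the lone arrays were 3-day replicate 3 for Col9a1 (6.38, highest, next 5.57), 7-day replicate 4 for Col18a1 (7.97, lowest, next 8.55) and for Col23a1 (6.15, lowest, next 6.35), and saline replicate 4 for the second Col6a1 probe (8.23, lowest, next 8.67). In muscle 7-day replicate 3 was the highest for the first Col6a1 probe (10.15, next 9.61) and for Col4a1 (11.16, next 10.73). Col7a1 was lowest on 3-day replicate 4 (7.51, next 8.03) and on saline replicate 2 (6.42, next 7.86). Col14a1 was highest on 3-day replicate 1 (5.76, next 5.22), and a Col24a1 probe (ILMN_1231275) was lowest on saline replicate 2 (5.65, next 6.50).

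By the test of the difference itself, the fitted changes of 3 probes were unequal in muscle and hippocampus at both longer courses. On the log2 scale the difference, muscle minus hippocampus, was 1.44 at 7 days and 1.12 at 14 days for Col1a2, 1.23 and 1.27 for Col3a1, and 0.75 and 0.81 for the first Col6a1 probe. Col3a1 was detected on none of the 16 hippocampal arrays, so its hippocampal side is background. The Col6a1 calls were lost with median scaling and in the authors' series values.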

How the results depend on the processing

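The muscle rises of Col1a2 and Col3a1 kept their direction and call under every alternative run and in every omission of 1 array. Their size differed between settings. Over the alternative settings Col1a2 changed by 0.51 to 1.44 at 7 days and 0.335 to 1.03 at 14 days. Col3a1 changed by 0.388 to 1.31 and 0.397 to 1.37. These ranges mix scales, since they include the authors' series values, which are z scores, and values without background correction. They therefore do not show whether the size held. Without background correction the hippocampal Col23a1 change at 14 days was -0.25 in place of -0.785. Other counts of called members moved with the processing, and the cause was not tested. With median scaling the count was 2 in place of 4 in hippocampus at 14 days against saline, 1 (Col9a2, higher) in place of 3 at 14 against 3 days, 5 and 8 in place of 2 and 2 in muscle at 7 and 14 days, and 6 and 5 in place of 3 and 3 for the differences between tissues. Under it Col4a1 in hippocampus, 14 against 3 days, reversed from -0.25 to 0.042. In the authors' series values, the count was 1 in place of 3 in hippocampus (14 against 3 days) and 5 in place of 2 in muscle at 14 days. Trended and robust variances gave 4 there. Array weights gave 0 in place of 1 in hippocampus at 7 days. Without the detection filter 2 members in place of 4 were called in muscle, 14 against 3 days. Keeping only probes detected on all arrays, which tests fewer probes, gave 6 and 6 members for the tissue difference in saline and after 14 days and 1 and 1 for the differences between changes. Leaving out each array in turn gave 0 to 1 and 3 to 4 members in hippocampus at 7 and 14 days, 2 to 5 at 14 against 3 days, 2 to 4 in muscle at 14 days, 1 to 4 at 14 against 3 days, and 2 to 3 and 3 to 4 for the tissue differences of change at 7 and 14 days.

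Same-numbered arrays of a tissue had correlations of deviations from -0.37 to 0.194 in hippocampus and -0.25 to 0.176 in muscle. Such arrays belong to different treatments, so these values cannot show whether arrays share a mouse. With the replicate block the count was 0 in place of 1 in hippocampus at 7 days and 1 in place of 4 in muscle at 14 against 3 days, and Col5a1 was not called in hippocampus at 14 days. A slide block was not run, since the file headers name no slides. Dim chains limit what can be seen: 20 of 59 probes were detected on no array.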
